A study of Mus musculus with 9 samples.

Results

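The 10 genes described here make, break down or sense sphingosine-1-phosphate (S1P) or build ceramide, the lipid from which sphingosine is released. They were taken by symbol from a list drawn up with earlier results of these libraries known, and all 10 were found among the 21950 mRNA genes of the renal cortex libraries. They comprise the sphingosine kinases Sphk1 and Sphk2, the S1P lyase Sgpl1, the S1P phosphatase Sgpp1, the receptors S1pr1, S1pr2 and S1pr3, the serine palmitoyltransferase subunit Sptlc2, and the ceramide synthases Cers2 and Cers6. All 10 exceeded a mean level of 0.1 FPKM (fragments scaled to transcript length and to the number of mapped fragments), the minimum for testing, which 14537 genes passed.

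Total RNA of the kidney cortex was sequenced from male mice on the C57BL/KsJ background, 3 mice per group with 1 library each, at 15 weeks of age. The control group were db/m littermates, which carry 1 mutant and 1 normal copy of the leptin receptor gene, are not diabetic and received vehicle. The dbdb group carried the db mutation on both copies, a germline defect in every tissue that makes the mice obese and diabetic, and also received vehicle. The dbR group were db/db mice given rosiglitazone, a thiazolidinedione that activates PPARγ, by daily gavage of 20 mg/kg. Treatment began at 7 weeks of age and lasted 8 weeks. There was no rosiglitazone-treated db/m group, so the drug was compared only within db/db mice.

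Ceramide is made de novo from serine and palmitoyl-CoA, beginning with serine palmitoyltransferase, and the ceramide synthases attach a fatty acid whose length depends on the enzyme. Ceramidases release sphingosine, which the sphingosine kinases turn into S1P. S1P is returned to sphingosine by phosphatases or split irreversibly by the lyase, and outside the cell it acts on a family of G protein-coupled receptors. In the kidney, S1P receptors are known from endothelium, vascular smooth muscle, mesangium and leukocytes as well as tubules.

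The libraries held an estimated 26.8 to 32.5 M fragments, read from the size of the smallest steps between FPKM values, and their gene levels correlated at r of 0.958 to 0.993 across genes. Proximal tubule markers summed to 2457 to 2758 FPKM in control, 2562 to 3169 in dbdb and 2804 to 2928 in dbR, with 2 of 6 (Slc5a2 and Slc5a12) called higher in dbdb vs. control and Slc5a12 in dbR vs. control. Of 3 thick ascending limb markers, 2 were called higher in dbR vs. control. Distal tubule and collecting duct markers summed to 255 to 261 FPKM in control, 416 to 485 in dbdb and 447 to 489 in dbR, and 4 of the 5 were called higher in both comparisons with control. Control replicate 1 stood apart in its red blood cell markers (73.9 FPKM against 8.31 to 20.5 in the other 8 libraries) and had the highest sum of smooth muscle markers (53.5 against 31.1 to 49.5). Each comparison was made with limma on log2(FPKM + 0.1) over all 14537 genes, and a gene was called at a Benjamini-Hochberg adjusted p under 0.05. Under these settings 3840 genes were called in dbdb vs. control (1899 higher, 1941 lower), 108 in dbR vs. dbdb (82 higher, 26 lower) and 3497 in dbR vs. control (1786 higher, 1711 lower). Where mitochondrial transcripts were left out and the rest scaled to an equal sum, the median of all genes in dbdb vs. control moved from -0.0030 to 0.15 on the log2 scale and the calls were 3489 higher and 968 lower. That scaling gave 52 higher and 55 lower in dbR vs. dbdb, and 2404 and 1006 in dbR vs. control, where scaling to the 75th percentile gave 2158 and 1328. Dbdb vs. control and dbR vs. control share the control libraries, and dbR vs. dbdb shares the dbdb libraries with the first of these, so the comparisons are not independent of each other.

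In the untreated diabetic cortex, S1pr1 rose and Cers6, Sgpp1 and Sptlc2 fell. Of the 10 genes, 1 was called higher and 3 lower in dbdb vs. control, against 26.4% of all genes tested (13.1% higher and 13.4% lower), and the levels of the groups did not overlap for 5 of the 10, against 42.4% of all genes. The median log2 fold change of the 10 was -0.11, beside -0.0030 over all genes. With rosiglitazone only S1pr3 was called among the 10, higher in dbR vs. dbdb, where 0.743% of all genes were called (0.564% higher and 0.179% lower), and its groups were the only ones of the 10 without overlap, against 22.7% of all genes. In dbR vs. control 2 were called higher (S1pr1 and S1pr3) and 3 lower (Cers6, Sgpp1 and Sptlc2), against 24.1% of all genes (12.3% higher and 11.8% lower), and 7 of the 10 did not overlap, against 41.9% of all genes. In whole cortex, fewer cells of a type and less RNA per cell cannot be told apart. Since each library is 1 mouse, the p-values measure the spread between mice.

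**Figure D1:**
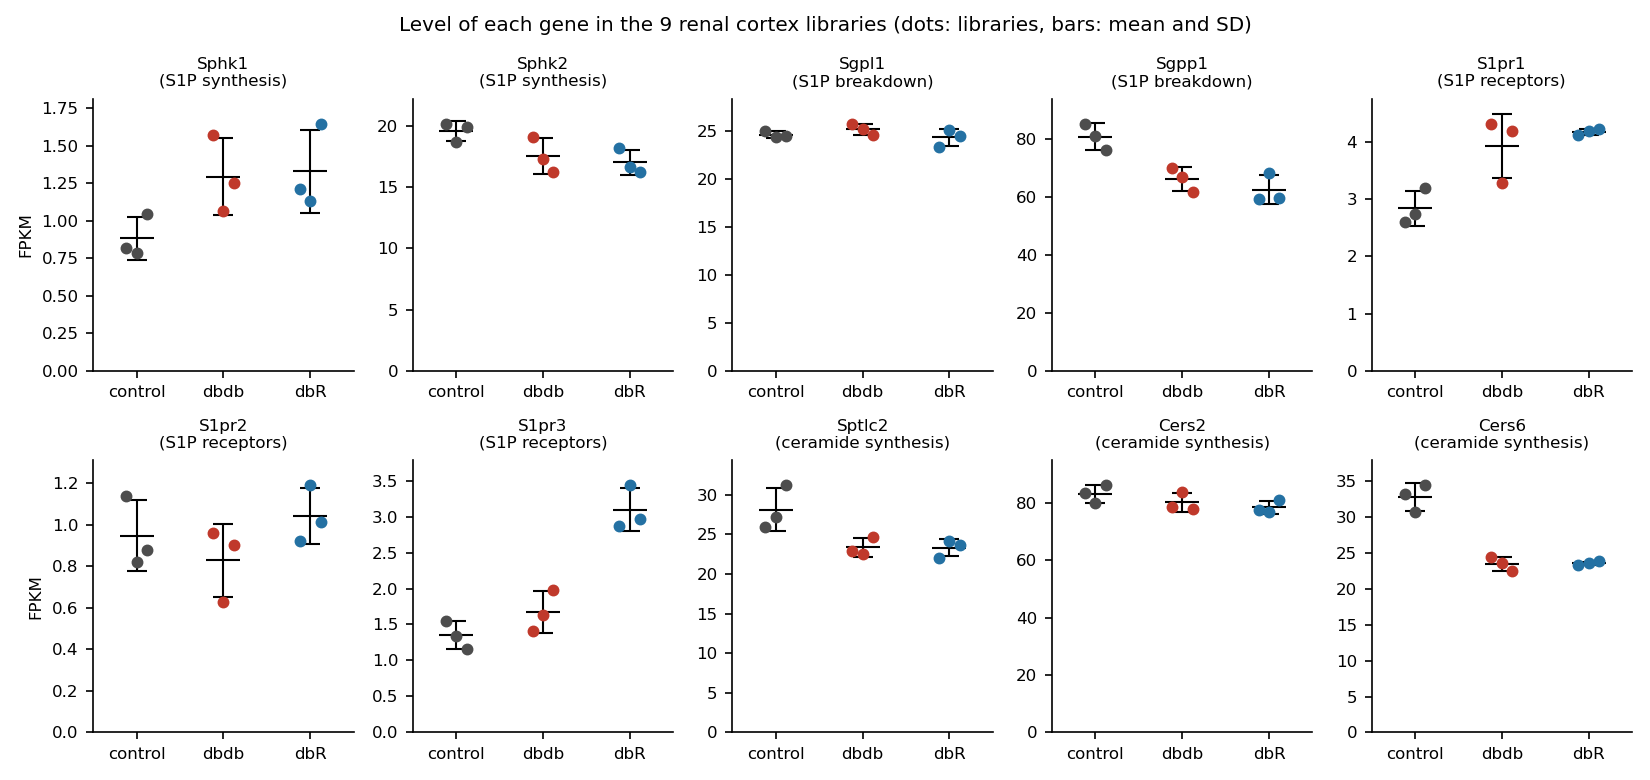
Level of each of the 10 genes in FPKM (vertical axis, from 0) in the control, dbdb and dbR libraries. Each dot is 1 library (1 mouse) and the bars give the mean and SD of 3. S1pr3 lies between 2.87 and 3.44 FPKM in dbR and between 1.16 and 1.98 in the other 6 libraries, while Cers6 lies between 30.7 and 34.4 FPKM in control and between 22.5 and 24.4 in both db/db groups.

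**Figure D2:**
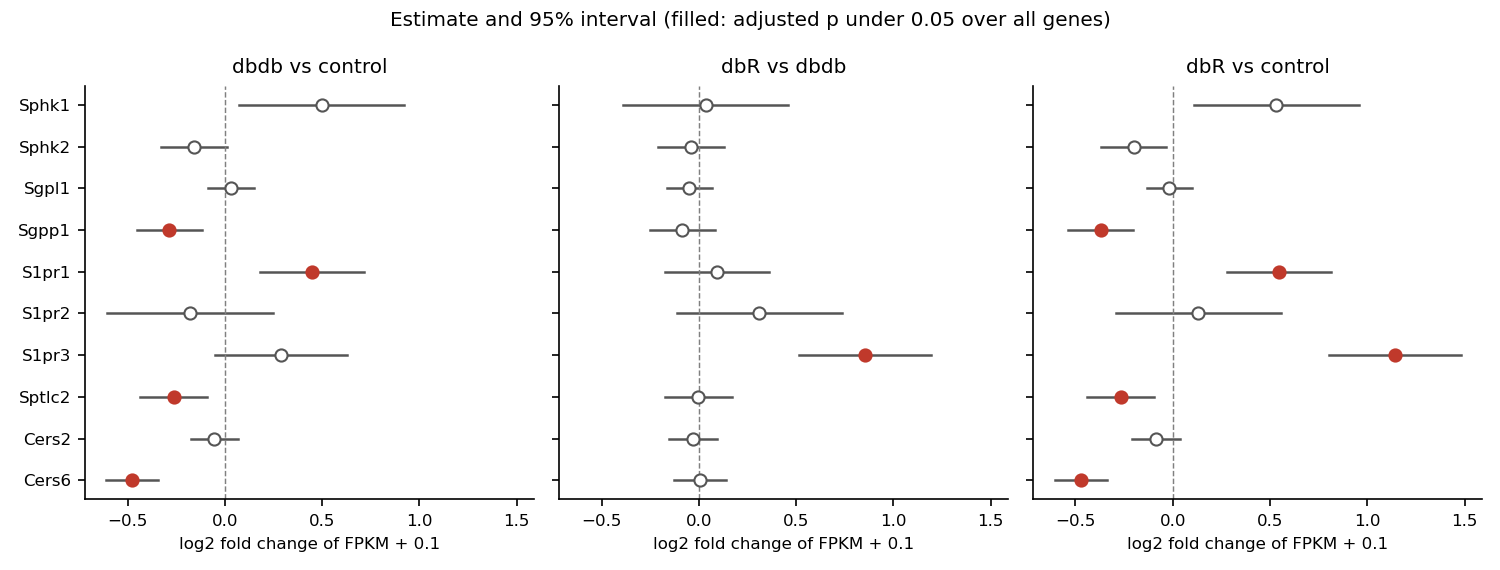
Log2 fold change of FPKM + 0.1 (horizontal axis) of the 10 genes in the 3 comparisons, with the 95% interval of the limma fit as a line. Filled points have an adjusted p under 0.05 over all genes. S1pr3 is the filled gene of the middle panel, at 0.86, and Cers6 has the lowest value of the left panel, at -0.48.

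The kinases that make S1P were far apart in level. Sphk2, which acts at internal membranes and in the nucleus, was the main one by FPKM. Its levels were 20.2, 18.6 and 19.9 FPKM in control, 19.0, 17.3 and 16.2 in dbdb, and 18.2, 16.6 and 16.2 in dbR. The dbR libraries were all below the controls by a small margin and the dbdb libraries overlapped both groups. With summed transcripts Sphk2 was not called in any comparison, with log2 fold changes of -0.16 (95% interval -0.33 to 0.0087, limma adjusted p = 0.148) in dbdb vs. control, -0.04 (-0.21 to 0.13, adjusted p = 0.823) in dbR vs. dbdb and -0.20 (-0.37 to -0.03, adjusted p = 0.0807) in dbR vs. control. With the highest transcript in place of the sum it was called lower in dbR vs. control (-0.32, limma adjusted p = 0.0471). The gene overlaps Rpl18 and Dbp on the opposite strand.

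Sphk1, the inducible cytoplasmic kinase, was the gene of lowest mean level among the 10 in control. It stood at 0.816, 0.788 and 1.05 FPKM in control, 1.57, 1.07 and 1.25 in dbdb, and 1.21, 1.13 and 1.65 in dbR. Every db/db library, treated or not, was above every control library, by a narrow margin in dbdb replicate 2, and the dbdb and dbR libraries overlapped. Its log2 fold change was 0.50 (SE 0.19, 95% interval 0.07 to 0.92) in dbdb vs. control and 0.53 (SE 0.19, 0.11 to 0.96) in dbR vs. control, with limma adjusted p = 0.0807 and 0.0683, so neither was called. With rosiglitazone, dbR vs. dbdb, it was 0.04 (-0.39 to 0.46, limma adjusted p = 0.948). As a share of the summed FPKM of both kinases, Sphk1 held 3.89% to 5.01% in control, 5.80% to 7.61% in dbdb and 6.24% to 9.20% in dbR. The study had singled out Sphk1 on these same libraries, so its direction here is no independent evidence. An estimated 36.7 to 84.7 fragments per library lay behind its value, the fewest of the 10 genes.

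The call of Sphk1 depended on the scaling. With mitochondrial transcripts left out the limma adjusted p was 0.0246 for dbdb against control and 0.0346 for dbR against control, and with 75th percentile scaling it was 0.0498 for the latter. In the first of these settings the median of all genes stood at 0.15 and 0.09 on the log2 scale. Under 75th percentile scaling it stood at 0.04 in dbR vs. control. The setting that takes the highest transcript of each gene also called Sphk1, but it takes Sphk1-202, which is the highest only through its db/db levels, so nothing is read from it. Sphk1 lies at chr11:116530925-116536674 on the plus strand (GRCm38) and overlaps the antisense gene Gm29292 on the minus strand, and the files list 12 transcripts of it. Of the 12, 4 passed the minimum mean FPKM of 0.1 for a transcript. Sphk1-202 (ENSMUST00000063446) and Sphk1-201 (ENSMUST00000063396) share the coding start, Sphk1-215 (ENSMUST00000154034) lacks 3 bases at the next splice site, and Sphk1-211 (ENSMUST00000141798) starts inside the intron with a start codon of its own. The annotated coding part of Sphk1-215 also ends earlier, at position 116535995 against 116536383 in the others. The coding starts are shown because these transcripts differ there by few bases. They run along chr11:116534164-116534881 (for Sphk1-211 chr11:116534821-116534881), and capitals mark coding bases that Sphk1-215 lacks.
Sphk1-202: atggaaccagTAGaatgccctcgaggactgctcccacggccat
Sphk1-215: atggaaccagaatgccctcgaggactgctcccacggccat
Sphk1-211: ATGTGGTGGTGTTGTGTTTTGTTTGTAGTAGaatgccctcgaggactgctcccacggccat
The sequences are from the GENCODE transcripts of GRCm38.

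Sphk1-202 was called higher in the untreated diabetic cortex, a call that several alternatives lost. The study listed this same transcript from these libraries, so its direction here is no independent evidence. In dbdb vs. control the study's own test of the transcript did not pass its adjusted threshold. In control the mean of Sphk1-202 (0.119 FPKM) was below those of Sphk1-211 (0.221), Sphk1-201 (0.197) and Sphk1-215 (0.129), while in both db/db groups it was the highest of the 12. Its level was 0.170, 1.03e-05 and 0.186 FPKM in control, 0.772, 0.582 and 0.814 in dbdb, and 0.444, 0.442 and 0.644 in dbR. All dbdb and dbR libraries lay above all controls, and dbR replicate 3 lay among the dbdb libraries. The log2 fold change was 2.05 (SE 0.44, 95% interval 1.03 to 3.06, limma adjusted p = 0.0239 over 29362 transcripts) in dbdb vs. control, where 9.57% of transcripts were called, and 1.61 (0.60 to 2.62, adjusted p = 0.0625) in dbR vs. control, where 8.5% were called. In dbR vs. dbdb it was -0.44 (-1.45 to 0.58, limma adjusted p = 0.783), in a comparison where 5 transcripts were called in all (0.017%). The call in dbdb vs. control was lost with only the 6 libraries of the comparison (adjusted p = 0.067), with a pseudocount of 0.01 (0.0903) and without dbdb replicate 1 (0.0712), 2 (0.0555) or 3 (0.0762). With control replicate 2 near 0, the size of the change depends on the pseudocount, the log2 fold change being 0.62 with 1 FPKM and 3.36 with 0.01.

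As a share of the Sphk1 sum, Sphk1-202 was 20.9%, 0.00131% and 17.8% in control, 49.3%, 54.6% and 65.2% in dbdb and 36.6%, 39% and 39.1% in dbR. The 3 groups did not overlap. Each pair of groups gave p = 0.10 by a two-sided exact permutation test, the smallest that 3 against 3 can give. The other 11 transcripts together summed to 0.765 ± 0.110 FPKM in control, 0.571 ± 0.196 in dbdb and 0.820 ± 0.162 in dbR (SD, n = 3), and the exact permutation p-values were 0.3 (dbdb vs. control), 0.3 (dbR vs. dbdb) and 0.7 (dbR vs. control). Sphk1-202 was taken for the share as the transcript of highest mean over all libraries, which it is only through its db/db levels. Both measures thus rest on the values that chose it, and no support is drawn from these tests.

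Among the other tested transcripts, Sphk1-211 was 0.0924, 0.317 and 0.255 FPKM in control and 0.0410, 9.64e-14 and 0.000172 in dbdb. In dbR it was 0.476, 0.433 and 8.79e-06. Its dbdb libraries were all below the controls, and the dbR libraries overlapped both groups. None of its comparisons was called, with limma adjusted p = 0.256 for dbdb against control and 0.506 for dbR against dbdb. Sphk1-201 and Sphk1-215 were not called either, with groups that overlapped in every comparison. A level near 0 for 1 transcript of a gene that is present can be a failed split of fragments as well as an absent transcript.

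**Figure D3:**
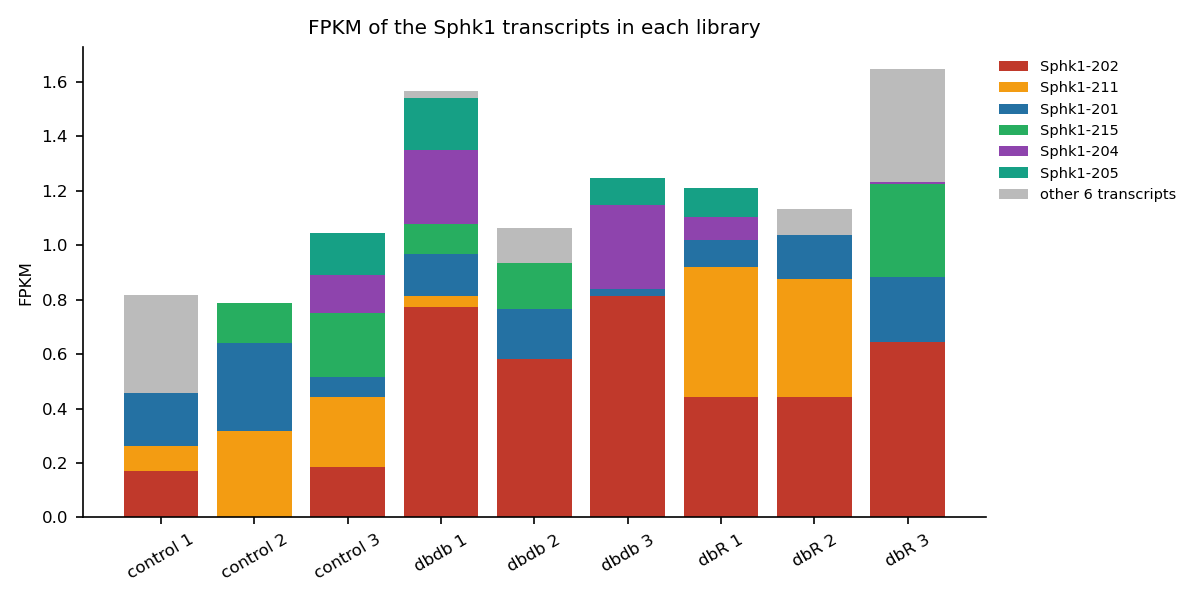
Stacked FPKM (vertical axis) of the Sphk1 transcripts in each of the 9 libraries (horizontal axis), from the highest to the lowest mean level, with the 6 lowest summed. Sphk1-202, at the base of each bar, takes 49.3% to 65.2% of the bar in dbdb, 36.6% to 39.1% in dbR and at most 20.9% in control.

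The annotated start of Sphk1-202 (position 116532473) lies 22 bases past a RefSeq start site of Sphk1, and the starts of Sphk1-204, Sphk1-212 and Sphk1-216 lie nearer to that site. The 250 bases before that site are chr11:116532201-116532450 on the plus strand of GRCm38.p6, and they hold 1 CACGTG, the E-box palindrome read by basic helix-loop-helix factors, in capitals.
Sphk1 promoter: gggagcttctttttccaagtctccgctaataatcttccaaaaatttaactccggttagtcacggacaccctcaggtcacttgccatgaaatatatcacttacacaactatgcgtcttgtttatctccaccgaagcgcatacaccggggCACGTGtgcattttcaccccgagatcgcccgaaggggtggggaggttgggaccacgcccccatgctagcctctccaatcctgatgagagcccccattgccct
CACGTG was searched with 6 other motifs on both strands in all 32817 RefSeq promoter windows (250 bases before to 50 after a start), and 7.15% of them hold it. Windows were at hand for 9 of the 10 genes, and CACGTG was in those of Sphk1, Cers2 and Cers6. TGANTCA, the AP-1 sequence (7.81% of all windows), was in 2 of the 5 windows of Sphk1, and the NF-kB motif (4.5%) in 1. TGACGTCA, the full cyclic AMP response element (1.79%), was in windows of Sphk2 and S1pr2, and GGGCGG, the GC box (35.6%), in windows of 6 genes. The direct repeat bound by PPAR with RXR (0.0396%) and the CArG box of serum response factor (1.63%) were in none of the member windows. A match describes the letters only.

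The genes whose pattern was most like that of Sphk1 were found among 11614 other genes with a mean of at least 1 FPKM, by the root mean square difference of centred log2 levels over the 9 libraries. The median gene stood at 0.35 by that measure, and a gene that did not vary at all would stand at 0.31. The nearest was F2rl1, the protease-activated receptor 2, at 0.10, with a mean of 4.71 FPKM in control, 6.75 in dbdb and 6.67 in dbR. S1pr1 was the next, at 0.14, followed by Fam213b, Zfp956 and Nfatc2ip, each at 0.15. These genes were chosen for their levels in the same libraries, so their differences between groups were not tested apart from that choice.

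The S1P-degrading enzymes differed from each other. Sgpp1, the phosphatase of the endoplasmic reticulum that returns S1P to sphingosine, was among the most highly expressed of the 10. Its levels were 85.2, 80.8 and 76.0 FPKM in control, 70.0, 66.9 and 61.8 in dbdb, and 59.4, 68.2 and 59.7 in dbR. All db/db libraries lay below all controls, with treated and untreated mice intermingled. It fell by 0.29 on the log2 scale (SE 0.08, limma adjusted p = 0.0197) in dbdb vs. control and by 0.37 (SE 0.08, adjusted p = 0.00608) in dbR vs. control, and differed by -0.09 (95% interval -0.25 to 0.08, adjusted p = 0.595) in dbR vs. dbdb. The dbdb call was lost with quantile normalization (limma adjusted p = 0.101), with mitochondrial transcripts left out (0.225), and without control replicate 1 (0.0688), control replicate 2 (0.0521) or dbdb replicate 3 (0.0643). The dbR vs. control call held in all 20 alternatives.

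Sgpl1, the lyase that removes S1P irreversibly, was not called in any comparison. It was 25.0, 24.4 and 24.5 FPKM in control, 25.8, 25.2 and 24.6 in dbdb, and 23.4, 25.1 and 24.5 in dbR. The groups overlapped in every comparison. The 95% intervals of its log2 fold changes were -0.09 to 0.15, -0.17 to 0.07 and -0.13 to 0.10 in the order dbdb vs. control, dbR vs. dbdb and dbR vs. control (limma adjusted p = 0.698, 0.672 and 0.838). It was called in dbdb vs. control only with mitochondrial transcripts left out (0.19, adjusted p = 0.0306, in a setting where the median gene stood at 0.15).

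Of the receptors, S1pr3 rose with rosiglitazone and S1pr1 rose in both db/db groups, while S1pr2 was not called. S1pr3, which couples to several G proteins and is known from vascular smooth muscle and endothelium, was at 1.55, 1.34 and 1.16 FPKM in control, 1.41, 1.63 and 1.98 in dbdb, and 2.87, 3.44 and 2.97 in dbR. The 3 treated mice were above all 6 untreated ones, and dbdb overlapped control. S1pr3 rose 1.81-fold in dbR vs. dbdb (log2 fold change 0.86, SE 0.15, 95% interval 0.52 to 1.2, limma adjusted p = 0.0421) and 2.21-fold in dbR vs. control (1.14, SE 0.15, adjusted p = 0.000668). In dbdb vs. control the log2 fold change was 0.29 (-0.05 to 0.63, adjusted p = 0.192). An estimated 146 to 442 fragments per library lay behind these values.

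The S1pr3 call in dbR vs. control held in all 20 alternatives, with log2 fold changes of 0.80 to 1.24. That in dbR vs. dbdb kept its sign in all 20, at 0.62 to 0.98, and was lost in 11 of them. These were the fits with no filter on low genes (limma adjusted p = 0.0778), with mitochondrial transcripts left out (0.0596), with the 6 libraries alone (0.0696), with the highest transcript of each gene (0.0566) and with a replicate block (0.0869). The other 6 left out control replicate 2 (0.0600), dbdb replicate 1 (0.0774) or 2 (0.120), or dbR replicate 1 (0.0713), 2 (0.186) or 3 (0.0855). The gene lies at chr13:51408639-51422797 on the plus strand, has 1 transcript in the files, and overlaps the lincRNA Gm32834 on the minus strand. The 250 bases before its RefSeq start, chr13:51408368-51408617 (GRCm38.p6, plus strand), are shown because it is the gene called with the PPARγ agonist, and they hold none of the motifs searched but 1 GGGCGG, in capitals.
S1pr3 promoter: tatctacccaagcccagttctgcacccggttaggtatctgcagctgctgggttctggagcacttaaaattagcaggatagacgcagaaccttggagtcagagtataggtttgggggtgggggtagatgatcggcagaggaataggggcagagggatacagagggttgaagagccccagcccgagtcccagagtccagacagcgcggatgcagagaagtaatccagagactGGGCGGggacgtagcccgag

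S1pr1, the Gi-coupled receptor through which S1P supports endothelial barriers and guides lymphocytes out of tissues, was at 2.60, 2.74 and 3.19 FPKM in control, 4.32, 3.29 and 4.18 in dbdb, and 4.12, 4.18 and 4.22 in dbR. Every db/db library exceeded every control, with dbdb replicate 2 just above control replicate 3, and the treated mice lay within the range of the untreated. S1pr1 rose 1.37-fold in dbdb vs. control (log2 fold change 0.45, SE 0.12, limma adjusted p = 0.0208) and 1.46-fold in dbR vs. control (0.54, SE 0.12, adjusted p = 0.00929), and in dbR vs. dbdb it stood at 0.10 (-0.17 to 0.36, adjusted p = 0.732). The dbdb call was lost with quantile normalization (limma adjusted p = 0.0544) and without control replicate 1 (0.0682), control replicate 2 (0.0615), dbdb replicate 1 (0.0696) or dbdb replicate 3 (0.0641), while that of dbR vs. control held in all 20 alternatives.

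S1pr2, another G protein-coupled receptor of S1P, was at 1.14, 0.820 and 0.878 FPKM in control, 0.958, 0.627 and 0.900 in dbdb, and 0.922, 1.19 and 1.01 in dbR. The groups overlapped in every comparison. Its log2 fold changes were -0.18 (-0.60 to 0.25), 0.31 (-0.11 to 0.74) and 0.13 (-0.29 to 0.56) in the same order as above (limma adjusted p = 0.529, 0.438 and 0.66). On the per-length scale of FPKM the receptor levels ran S1pr1, S1pr3 and S1pr2 in each group, with no overlap between neighbours within a group. In control, S1pr2 and Sphk1 overlapped at the low end of the 10 genes, and Cers2 and Sgpp1 at the high end.

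Markers of several cell types also moved. Their counts are to be set against 13.1% of all genes called higher and 13.4% lower in dbdb vs. control, 0.564% higher in dbR vs. dbdb, and 12.3% higher and 11.8% lower in dbR vs. control. Besides the distal tubule and collecting duct markers given above, which were higher in both db/db groups as S1pr1 was, podocyte markers summed to 73.4 to 83.8 FPKM in control, 86.0 to 92.3 in dbdb and 79.4 to 96.6 in dbR, with 2 of 5 called higher in both comparisons with control. The 8 endothelial markers summed to 142 to 158 FPKM in control, 112 to 123 in dbdb and 152 to 175 in dbR, with none at 0. In dbdb vs. control 4 of the 8 fell (Emcn, Pecam1, Kdr and Cdh5) and none was called higher, while S1pr1 rose. In dbR vs. control Tek (0.46, limma adjusted p = 0.00256) and Flt1 (0.33, adjusted p = 0.0252) rose and none of the 8 fell, and S1pr1 rose there too. In dbR vs. dbdb 3 of the 8 rose (Emcn by 0.66, Kdr by 0.52 and Tek by 0.42 on the log2 scale, limma adjusted p = 0.0205, 0.0309 and 0.0479), as did S1pr3, by 0.86. Of the distal tubule and collecting duct markers, Atp6v1g3 rose there as well (0.52, limma adjusted p = 0.0251). The median of the 8 endothelial markers in that comparison was 0.39, beside -0.0022 over all genes.

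Of the 8 smooth muscle, pericyte and mesangial markers, Pdgfrb was called higher in dbR vs. dbdb (0.69, limma adjusted p = 0.0234). In dbR vs. control Pdgfrb (0.41, limma adjusted p = 0.0131) and Notch3 (0.34, adjusted p = 0.0444) were called higher and none lower. Their sums overlapped between all groups (32.0 to 53.5 FPKM in control, 31.1 to 47.7 in dbdb and 38.3 to 49.5 in dbR). Leukocyte markers, 7 of 8 of which fell in dbdb vs. control, summed to 30.3 to 38.3 FPKM in control, 12.9 to 15.9 in dbdb and 18.5 to 20.7 in dbR. None of the 8 was called in dbR vs. dbdb, though all 8 log2 fold changes were positive there, with a median of 0.48. In dbR vs. control 3 of the 8 were called lower. Immediate-early genes, a sign of acute stimulation of cells, summed to 21.2 to 23.3 FPKM in control, 28.4 to 39.3 in dbdb and 20.4 to 27.6 in dbR. Of the 7 tested, 2 (Jun and Nr4a1) were called higher in dbdb vs. control and 5 were not called. Jun made up much of the sum, at a mean of 9.25 FPKM in control and 17.7 in dbdb. The part of these cell types and genes in the changes of S1pr1, S1pr3 and Sphk1 was not tested.

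**Figure D4:**
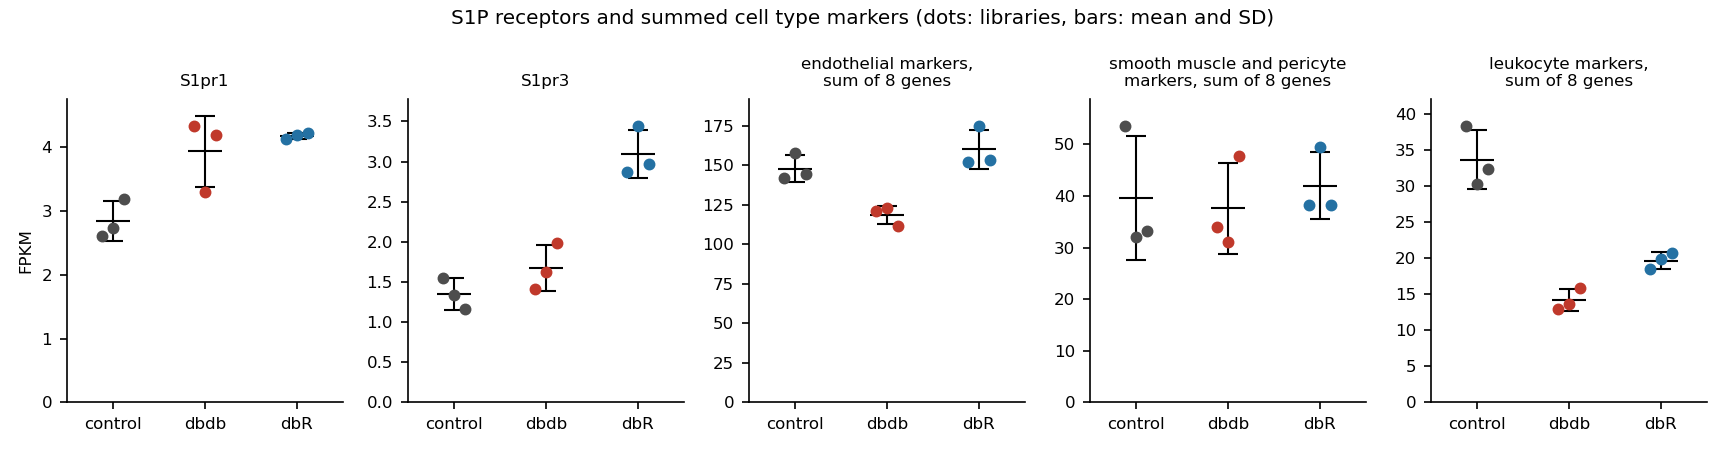
FPKM (vertical axes, from 0) of S1pr1 and S1pr3 and the summed FPKM of 3 marker lists in the control, dbdb and dbR libraries; dots are libraries, bars the mean and SD of 3. Endothelial markers sum to 112 to 123 FPKM in dbdb, below both other groups, whereas S1pr1 is lowest in control.

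Of the ceramide synthesis genes, Cers6 and Sptlc2 fell in both db/db groups and Cers2 was not called. Cers6, which makes ceramide with a C16 fatty acid, was at 33.2, 30.7 and 34.4 FPKM in control, 24.4, 23.6 and 22.5 in dbdb, and 23.3, 23.5 and 23.8 in dbR. The 6 db/db libraries lay below all controls and the treated mice lay within the range of the untreated. Cers6 fell by 0.48 on the log2 scale (SE 0.06, limma adjusted p = 0.000412) in dbdb vs. control and by 0.47 (SE 0.06, adjusted p = 0.000512) in dbR vs. control, and in dbR vs. dbdb it stood at 0.0052 (-0.13 to 0.14, adjusted p = 0.979). Both calls held in all 20 alternatives, with log2 fold changes of -0.53 to -0.32 and -0.52 to -0.38. Its 250 upstream bases, chr2:68861191-68861440 (GRCm38.p6, plus strand), are shown as those of the gene with the firmest calls, and they hold 1 CACGTG, in capitals.
Cers6 promoter: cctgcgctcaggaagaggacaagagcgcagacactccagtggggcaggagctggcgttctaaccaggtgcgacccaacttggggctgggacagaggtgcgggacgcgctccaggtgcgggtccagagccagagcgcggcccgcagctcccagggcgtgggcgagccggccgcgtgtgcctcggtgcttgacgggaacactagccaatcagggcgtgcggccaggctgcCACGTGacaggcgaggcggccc

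Sptlc2, a catalytic subunit of serine palmitoyltransferase, was at 26.0, 27.2 and 31.2 FPKM in control, 22.9, 22.5 and 24.7 in dbdb, and 22.1, 24.2 and 23.6 in dbR. All db/db libraries were below all controls. The gene overlaps the lincRNA Gm26764 and the pseudogene Gm48806 on the opposite strand. It fell by 0.26 on the log2 scale (SE 0.08, limma adjusted p = 0.0309) in dbdb vs. control and by 0.27 (SE 0.08, adjusted p = 0.0313) in dbR vs. control, and dbR vs. dbdb gave -0.0035 (-0.18 to 0.17, adjusted p = 0.989). Neither call held throughout. The dbdb call was lost in 7 of 20 alternatives (limma adjusted p of 0.0524 to 0.293), among them without control replicate 2 (0.0529), control replicate 3 (0.0966), dbdb replicate 1 (0.079) or dbdb replicate 2 (0.0958). The dbR vs. control call was lost in 8 (0.051 to 0.12), among them without control replicate 2 (0.0543), control replicate 3 (0.0969) or dbR replicate 1 (0.101), 2 (0.051) or 3 (0.0665).

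Cers2, which makes ceramides with very long chains and is the main ceramide synthase of kidney, was at 83.5, 80.0 and 86.2 FPKM in control, 78.7, 84.0 and 77.9 in dbdb, and 77.5, 76.8 and 81.1 in dbR. The groups overlapped in every comparison. Its 95% intervals were -0.18 to 0.07, -0.15 to 0.09 and -0.21 to 0.04 on the log2 scale (limma adjusted p = 0.513, 0.813 and 0.298). In both comparisons with control the interval did not reach the change of Cers6. Cers2 overlaps Setdb1 on the opposite strand, and the strand setting of the quantification is not given in the sources used here.

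The other genes of sphingolipid metabolism gave 62 listed genes, of which 56 were tested. In dbdb vs. control 8 rose and 25 fell (58.9%, against 26.4% of all genes), and 43 of the 56 (42.4% of all genes) did not overlap between the groups. Their median log2 fold change was -0.20, beside -0.0030 over all genes, and with mitochondrial transcripts left out it was -0.05 beside 0.15, with 16 called higher and 17 lower. In dbR vs. control 10 rose and 25 fell, where 12.3% of all genes were called higher and 11.8% lower (median -0.09, beside -0.0014). With mitochondrial transcripts left out, 12 were called higher and 17 lower there (median 0.0033, beside 0.09). In dbR vs. dbdb limma called none of the 56, with 10 at an unadjusted p under 0.05 (17.5% of all genes were) and a median of 0.01. The smallest adjusted p there was 0.0517, of Plpp1 (Ppap2a in the files), a lipid phosphate phosphatase that acts on S1P outside cells, at 33.3 ± 0.152 FPKM in dbdb and 43.7 ± 3.23 in dbR (SD, n = 3). Plpp1 was called higher in dbR vs. control (0.51, adjusted p = 0.00114).

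The other genes of the entry into the pathway were read beside Sptlc2 and Cers6. For each role that follows, the share to set its counts against in dbdb vs. control is 13.1% of all genes called higher and 13.4% lower. Of 6 tested genes of serine palmitoyltransferase and its regulators, 3 fell in dbdb vs. control, namely Sptlc1 (-0.47), the partner of Sptlc2, and the inhibitory regulators Ormdl1 (-0.28) and Ormdl2 (-0.41). Sptssa, the small subunit and the highest of this group at 34.3 to 37.2 FPKM on average, stood at -0.07 (limma adjusted p = 0.531). Of 8 tested genes of the later steps 5 fell and 1 rose. Degs2, a ceramide desaturase and hydroxylase, had the largest fall of the 56 genes, from a mean of 51.9 FPKM in control to 13.3 in dbdb and 14.2 in dbR (log2 fold change -1.94, limma adjusted p = 3.8e-05 in dbdb vs. control). Cers5, which like Cers6 makes C16 ceramide, fell by 0.63 (limma adjusted p = 0.00777), Kdsr by 0.51 (adjusted p = 0.000907), the main desaturase Degs1, the highest of this group, by 0.33 (adjusted p = 0.0102), and the ceramide carrier Col4a3bp by 0.21 (adjusted p = 0.0385). The fatty acid hydroxylase Fa2h rose by 0.76 (limma adjusted p = 0.0343).

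All 4 tested ceramidases, which release sphingosine for the kinases, were called in both comparisons with control (against 26.4% of all genes for dbdb and 24.1% for dbR). Asah1, the lysosomal one and the highest, fell by 0.54, Asah2 by 0.22 and Acer3 by 0.28 in dbdb vs. control, while Acer2, the Golgi ceramidase, rose by 0.55 and stood at 4.08, 6.0 and 6.91 FPKM on average in control, dbdb and dbR (limma adjusted p of 0.000327 to 0.0283 for the 4). Of 9 tested genes listed under ceramide kinase and sphingomyelin, not all of which act on sphingomyelin, Samd8, Smpd1, Smpd2 and Smpdl3a fell, by 0.47, 0.28, 0.58 and 0.53 in dbdb vs. control, and none was called higher. Smpdl3a was the highest at 348 FPKM in control, and Sgms2, a sphingomyelin synthase, was called higher in dbR vs. control (0.39, limma adjusted p = 0.0364) and stood at 0.32 in dbdb vs. control (adjusted p = 0.0674).

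Of 18 glycosphingolipid and lysosomal genes 9 fell and 3 rose in dbdb vs. control, against 26.4% of all genes called. The glucosylceramide synthase Ugcg fell by 0.76, the lactosylceramide synthase B4galt5 by 1.47 and the galactosylceramide synthase Ugt8a by 0.93, and among the lysosomal genes Galc fell by 0.20, Glb1 by 1.01, Neu1 by 0.46 and Psap, the saposin precursor and the highest at 521 FPKM in control, by 0.36. B4galt6, St3gal5 and Hexa rose by 0.59, 0.54 and 0.51. In dbR vs. control the same 12 genes were called in the same direction, with A4galt, the globotriaosylceramide synthase, as well (0.58, limma adjusted p = 0.00822).

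The remaining genes act on S1P itself. Sgpp2, the second S1P phosphatase, rose by 0.67 (limma adjusted p = 0.00219) in dbdb vs. control, at 3.49 FPKM on average in control and 5.57 in dbdb, while Sgpp1 fell from a mean of 80.7 to 66.2 FPKM. Aldh3a2, which oxidizes the aldehyde that the lyase releases, fell by 0.89 (limma adjusted p = 2.35e-05), from 110 to 59.1 FPKM. The S1P exporter Spns2 rose by 0.92 and Abcc1, a transporter also reported to carry S1P, by 0.59 (limma adjusted p = 0.00186 and 0.00228). Apom, the plasma carrier of S1P and the highest of its group, was at 52.1, 45.5 and 68.2 FPKM on average in control, dbdb and dbR and was not called (limma adjusted p = 0.10 in dbR vs. dbdb). Of the other receptors S1pr4 was tested and not called (limma adjusted p = 0.442, 0.553 and 0.111), and S1pr5 was below the minimum level.

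**Figure D5:**
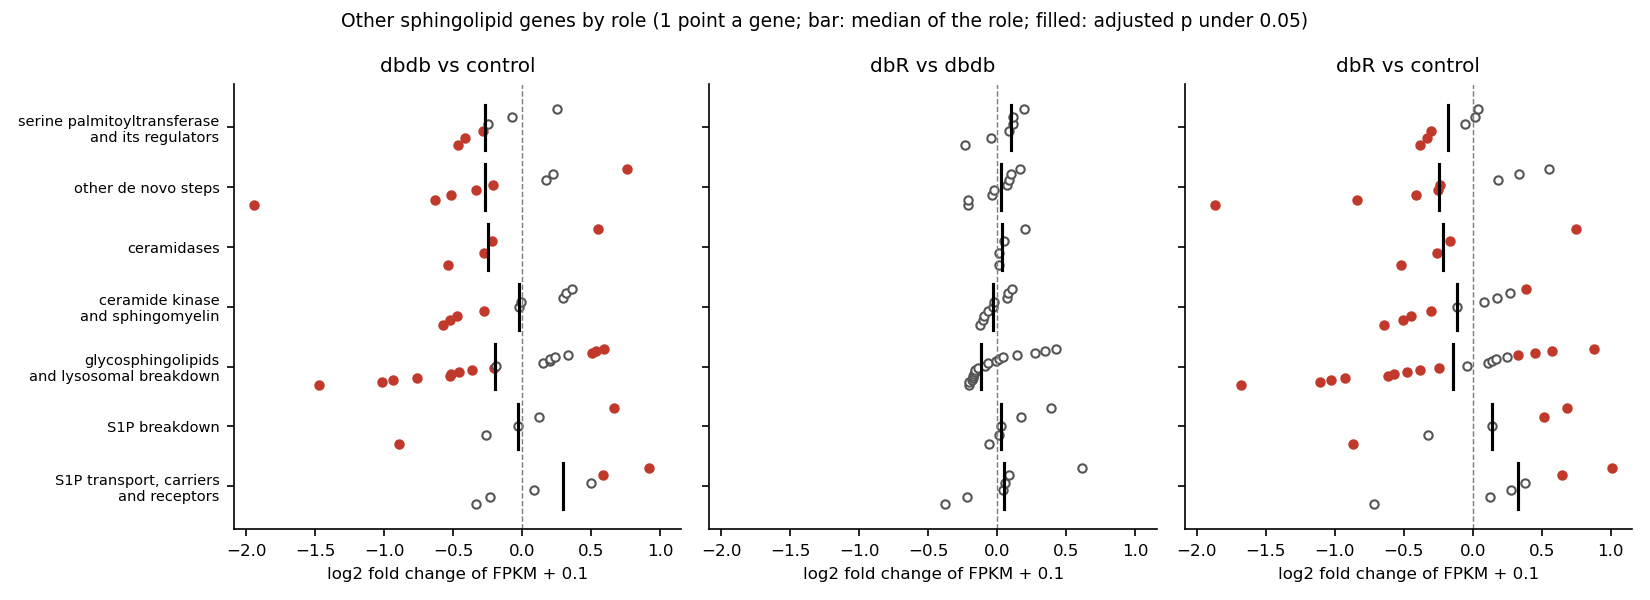
Log2 fold change of FPKM + 0.1 (horizontal axis) of the 56 other tested sphingolipid genes by role (vertical axis) in the 3 comparisons. Each point is a gene, filled at an adjusted p under 0.05, and the black bar is the median of the role. Filled points lie on both sides in the comparisons with control (8 higher and 25 lower in dbdb vs. control) and there are none in dbR vs. dbdb.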

How the data were processed

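Renal cortex RNA of 9 mice (3 control, 3 dbdb, 3 dbR) was depleted of ribosomal RNA and sequenced strand-specifically by the authors. The deposited FPKM values of each library were made by the authors with TopHat 2.0.9, Scripture and Cufflinks 2.1.1 on GRCm38.p2, for 50660 mRNA transcripts. The strand setting of the quantification is not given in the sources used here. The files hold no read counts, so precision was judged from the spread between mice. Total fragments were estimated from the steps between low FPKM values. The files of long noncoding RNA were not used here.

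FPKM was summed per gene (21950 genes) and tested as log2(FPKM + 0.1) with limma 3.58.1 (R 4.3.3), with a trend of variance on mean. All 9 libraries entered 1 model, 3 comparisons were drawn from it, and p-values were adjusted by Benjamini-Hochberg over the 14537 genes with a mean of at least 0.1 FPKM. A fold change on this scale understates the change of low genes. A second fit covered 29362 transcripts. The code was tested on simulated data. Shares of Sphk1 transcripts were compared by a two-sided exact permutation test (scipy 1.17.1), whose smallest p with 3 against 3 is 0.10.

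The members and lists were chosen with earlier results of these data known. Named were the 10 members, every other sphingolipid gene called in any comparison or highest in its role (some of these are not reported here by name), the 5 genes with a mean of at least 1 FPKM nearest to Sphk1, and defining markers. Marker lists covered proximal tubule, thick ascending limb, distal tubule and collecting duct, podocytes, endothelium, smooth muscle with pericytes and mesangium, leukocytes, red blood cells, adipocytes and immediate-early genes. Of these, thick ascending limb markers summed to 322 to 424 FPKM in control, 314 to 510 in dbdb and 375 to 441 in dbR, and adipocyte markers to 0.285 to 2.52, 0 to 0.0518 and 0.0315 to 0.618. Alternatives were pseudocounts of 1 and 0.01, no filter, a minimum of 1 FPKM, 75th percentile scaling, quantile normalization, mitochondrial transcripts left out, the 6 libraries of a comparison alone, a replicate block, robust variance, the highest transcript of each gene and leaving out each library. RefSeq promoters (GRCm38.p6) matched 9 of the 10 members, all but S1pr1.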

Additional observations from a re-analysis of the deposited data

How the results depend on the processing

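Of the member and Sphk1 transcript results recomputed under the alternatives, 711 kept direction and side of the threshold, 41 lost a call, 7 gained one and 42 changed sign. The cause of these changes was not tested. Cers6 in both comparisons with control, and Sgpp1, S1pr1 and S1pr3 in dbR vs. control, kept their calls in all 20 alternatives. The 95% intervals of Sphk1 and S1pr2, the members with the fewest fragments, were the widest of the 10.

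Of the 10 members, 4 were called in dbdb vs. control, 1 with quantile normalization and 1 to 4 when a library was left out (1 without control replicate 2). In dbR vs. dbdb the 1 member call (S1pr3) became 0 with no filter, with mitochondrial transcripts left out, with 6 libraries, with the highest transcript and with a replicate block, and 0 to 1 when a library was left out. The other sphingolipid genes called in dbR vs. dbdb went from 0 to 1 (Plpp1) with a minimum of 1 FPKM, 75th percentile scaling, quantile normalization and robust variance, and were 0 to 1 when a library was left out. The count of Sphk1 transcripts called in dbdb vs. control was 0 with a pseudocount of 0.01 and with 6 libraries, and 0 to 1 when a library was left out. No Sphk1 transcript reached a minimum of 1 FPKM. All genes called in dbR vs. dbdb numbered 108, and 31 with no filter, 166 with a minimum of 1 FPKM, 224 with 75th percentile scaling, 234 with quantile normalization, 22 with 6 libraries, 166 with robust variance and 49 with the highest transcript. Leaving out a library gave 2 (without dbR replicate 2) to 141 (without dbdb replicate 3).

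The labels do not say that replicate numbers pair the mice, and the data gave no sign of it: same-numbered libraries correlated at -0.19 to 0.06 in their deviations from the group means. With a replicate block 3345, 23 and 3030 genes were called in dbdb vs. control, dbR vs. dbdb and dbR vs. control, and 4, 0 and 5 of the members (S1pr3 in dbR vs. dbdb at limma adjusted p = 0.0869).

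No log2 fold change that changed sign was called in the reported analysis. In dbdb vs. control Cers2 was 0.10 with mitochondrial transcripts left out and 0.084 with quantile normalization. In dbR vs. dbdb Sphk1 was -0.023 and -0.020 under these and -0.44 with the highest transcript, Sptlc2 0.025 with 75th percentile scaling and 0.011 with quantile normalization, and Cers6 -0.058 with mitochondrial transcripts left out. In dbR vs. control Sgpl1 was 0.028 with 75th percentile scaling, 0.076 with mitochondrial transcripts left out and 0.042 with quantile normalization, Cers2 was 0.0098 with mitochondrial transcripts left out and 0.0090 with quantile normalization, and S1pr2 was -0.0082 with quantile normalization. Leaving out a library gave in dbR vs. dbdb -0.12 to 0.17 (Sphk1), -0.096 to 0.021 (Sphk2), -0.025 to 0.17 (S1pr1), -0.031 to 0.037 (Sptlc2), -0.056 to 0.0023 (Cers2) and -0.026 to 0.032 (Cers6), and in dbR vs. control -0.041 to 0.011 (Sgpl1).

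Of the Sphk1 transcripts, Sphk1-215 was 0.016 in dbR vs. dbdb with a pseudocount of 1, and when a library was left out -0.83 to 0.24 there, -0.70 to 0.23 in dbdb vs. control and -1.02 to 0.062 in dbR vs. control. Sphk1-201 was -0.035 to 0.55 in dbR vs. dbdb and -0.43 to 0.21 in dbR vs. control. Sphk1-211 in dbR vs. control was -0.68 with a pseudocount of 0.01, -0.016 with quantile normalization and -0.40 to 0.86 when a library was left out.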
